A study of Mus musculus with 6 samples.

Results

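The genes described here are 10 regulators and surface markers of the stem state in spermatogonia: Lhx1, Bcl6b, Eomes, T, Tcl1, Pax7, Pdx1, Glis3, Shisa6 and Plvap. They were taken by name from a table of 23355 gene entries, each name matching 1 entry. RNA was sequenced from ID4-GFP+ spermatogonia of mice that overexpress ID4 constitutively in germ cells (3 samples) and of control mice (3 samples). Spermatogonia are the dividing germ cells of the testis, and in every sample those carrying a green fluorescent reporter for ID4 were profiled. The promoter that drives the ID4 transgene, the strain and the age of these animals are not given in the sources used here. Levels are the authors' FPKM (fragments scaled to transcript length and to the mapped fragments of the library), 1 value per group that the authors combined over its 3 samples. No value below therefore has a replicate SD, library depth is unknown, and the spread between samples enters only through the authors' own test.

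A small pool of undifferentiated spermatogonia renews itself and feeds sperm production for life. Its upkeep depends on GDNF, a ligand made by cells around the germ line, which acts through the co-receptor GFRA1 and the receptor RET. In cultured mouse spermatogonia GDNF raises the transcription factor genes Bcl6b, Lhx1, Etv5 and Id4. In mouse testis, PAX7, EOMES, SHISA6, PDX1 and PLVAP have each been used to mark subsets within this pool, and ID4 itself blocks DNA binding by basic helix-loop-helix (bHLH) factors, which recognise the E-box.

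Of the 5 genes that were called higher, Bcl6b had no RefSeq promoter window at hand. The promoters of the other 4 are printed because each transcript was higher and because ID4 acts on factors that bind E-boxes. They come from RefSeq (GRCm38.p6), run 5′ to 3′ on the gene's strand from 250 bases before the start to 50 bases after it, and carry the E-box letters CANNTG in capitals. The windows are chr11:84525485-84525784 (minus strand) for Lhx1, chr17:8434173-8434472 (plus) for T, chr12:105222688-105222987 (minus) for Tcl1 and chr9:118477939-118478238 (plus) for Eomes.
Lhx1: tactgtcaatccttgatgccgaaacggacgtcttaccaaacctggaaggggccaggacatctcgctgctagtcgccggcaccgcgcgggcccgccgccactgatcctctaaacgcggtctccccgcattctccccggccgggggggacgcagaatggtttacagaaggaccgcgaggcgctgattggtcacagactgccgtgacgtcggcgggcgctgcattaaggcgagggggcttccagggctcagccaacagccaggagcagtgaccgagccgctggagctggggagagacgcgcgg
T: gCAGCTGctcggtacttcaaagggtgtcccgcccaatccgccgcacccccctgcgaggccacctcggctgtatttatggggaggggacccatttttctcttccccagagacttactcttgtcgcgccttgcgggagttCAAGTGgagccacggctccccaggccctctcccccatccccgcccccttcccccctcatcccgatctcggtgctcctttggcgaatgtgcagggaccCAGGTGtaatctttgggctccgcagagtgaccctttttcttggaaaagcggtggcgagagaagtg
Tcl1: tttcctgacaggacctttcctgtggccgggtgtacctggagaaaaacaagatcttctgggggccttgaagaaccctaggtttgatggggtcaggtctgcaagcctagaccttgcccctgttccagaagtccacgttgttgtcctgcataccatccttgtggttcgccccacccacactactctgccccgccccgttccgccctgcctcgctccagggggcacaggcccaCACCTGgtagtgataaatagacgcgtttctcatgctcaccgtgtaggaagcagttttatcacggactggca
Eomes: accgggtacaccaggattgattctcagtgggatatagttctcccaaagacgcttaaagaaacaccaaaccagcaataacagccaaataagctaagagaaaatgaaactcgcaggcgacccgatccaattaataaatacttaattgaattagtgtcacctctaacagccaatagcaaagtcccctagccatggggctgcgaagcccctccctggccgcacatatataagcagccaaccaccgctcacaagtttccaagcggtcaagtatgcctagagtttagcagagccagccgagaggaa
The T window holds 3 E-boxes, at positions -249 (CAGCTG), -112 (CAAGTG) and -15 (CAGGTG), counted from the start. The Tcl1 window holds 1, CACCTG at position -21, and the Lhx1 and Eomes windows hold 0.

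These letters are common in promoters. Both strands were searched, and 72.3% of 32851 RefSeq windows of the same length hold at least 1 E-box, with a median of 1. The narrower E-box CAGCTG, in 16.3% of all windows, occurs in those of T and Glis3. RefSeq windows were at hand for 7 of the 10 genes, without Bcl6b, Shisa6 and Plvap. Among the 3 of these 7 that lie outside the called set, Pdx1 has 3 E-boxes, Glis3 has 1 and Pax7 has 0. The starts used for the Pdx1 and Glis3 windows lie 41.5 kb and 39.95 kb from the starts of their deposited spans. The ETS site CCGGAAGT (3.89% of all windows), the forkhead site GTAAACA (3.65%), the T-box site TCACACCT (1.28%), the LIM-homeodomain site TAATTA (5.29%) and the TATA box TATAAA (13.6%) occur in 0 of the 7. Base composition differs widely among the called genes, with 65.7% G+C and 31 CpG in the Lhx1 window but 47.3% and 10 in that of Eomes, against medians of 52.7% and 7 over all windows. A match is a description of letters, and an absent match says nothing of a factor.

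Id4, the gene overexpressed by design, had 13.4 FPKM in the overexpression group and 6.37 FPKM in controls, and q was 0.000835 in the authors' deposited table. Any transgenic transcripts that match this entry are counted together with endogenous Id4 transcripts, and the part of each was not tested. Germ cell markers were abundant in both groups: 10 of them summed to 2386 FPKM with overexpression and 2608 FPKM in controls, with Dazl and Ddx4 above 250 FPKM in each. Markers of other cell types were higher as well. Of 14 macrophage genes 13 were higher (summed level 334 FPKM with overexpression and 91.2 FPKM in controls), of 15 Sertoli cell genes 7 (350.3 FPKM with overexpression and 180.3 FPKM in controls), of 10 Leydig cell genes 4 (113 FPKM with overexpression and 66.5 FPKM in controls) and of 11 fibroblast and matrix genes 3, with 1 lower (55.3 FPKM with overexpression and 28.3 FPKM in controls). Of 8 peritubular myoid genes only Myl9 was tested, and it was not called (12.7 FPKM in each group). The 8 summed to 16.8 FPKM with overexpression and 16.6 FPKM in controls, most of it Myl9. Of 10 spermatid genes 5 were higher and 0 lower (367 FPKM with overexpression and 131 FPKM in controls), led by the protamine Prm1 with 191.6 FPKM in the overexpression group and 35.9 FPKM in controls. Of 10 genes of differentiating spermatogonia, 7 were lower and 1 was higher (635 FPKM with overexpression and 1037 FPKM in controls). In bulk samples, fewer cells of a type and less RNA per cell cannot be told apart.

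All 10 stem-state genes had a higher FPKM with ID4 overexpression than in controls, and 5 passed the authors' test. Higher or lower below means q at or under 0.05 in the authors' deposited table. By that rule Lhx1, Bcl6b, Tcl1, T and Eomes were higher and 0 were lower, where 9.59% of all 10990 tested genes were higher and 7.42% were lower. At a q of 0.01 the count was 4, without Eomes, where 6.04% of tested genes were higher, 4.09% lower and 10.1% either. At a q of 0.1 it was 5, where 12.3% were higher, 9.77% lower and 22.1% either, against 17.0% either way at 0.05. Glis3 and Plvap were tested and not called, and Pax7, Pdx1 and Shisa6 were not tested by the authors. The 7 tested genes had a median log2 fold change of 1.09, against 0.01 over all tested genes. An FPKM above the control value was found in 51.5% of tested genes and in 58.1% of untested entries with signal in both groups. These 10 genes were chosen with results of these data known, so their count is a description.

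**Figure D1:**
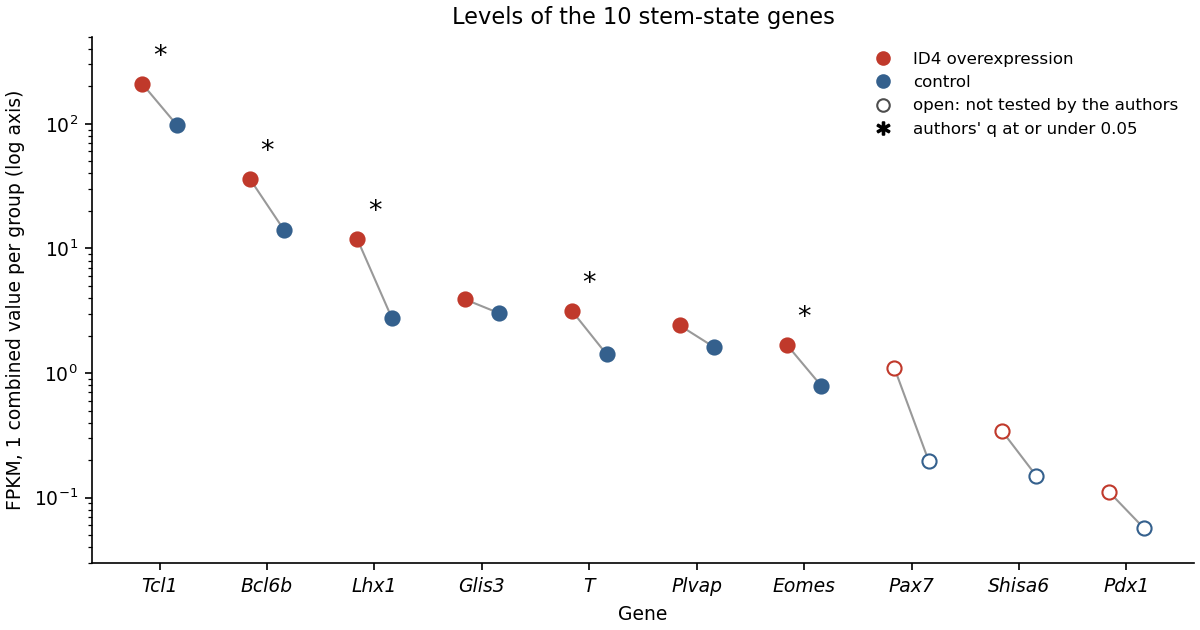
FPKM of the 10 genes (log axis), 1 combined value per group, with ID4 overexpression on the left of each pair and control on the right; open circles were not tested by the authors and asterisks mark an authors' q at or under 0.05. Every pair slopes down to the control value, most steeply for Pax7 (1.09 FPKM with overexpression and 0.196 FPKM in controls) and Lhx1 (11.9 FPKM with overexpression and 2.79 FPKM in controls).

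Levels spanned more than 3 orders of magnitude. With overexpression the order ran Tcl1, Bcl6b, Lhx1, Glis3, T, Plvap, Eomes, Pax7, Shisa6, Pdx1, or 209 FPKM at the top and 0.111 FPKM at the bottom. In controls Glis3 stood above Lhx1 and Plvap above T, and the other 6 positions held the same gene. Tcl1 alone made up 77.5% of the summed FPKM of the 10 genes with overexpression and 80.3% in controls. Without values per sample, it cannot be said which neighbours in this order differ beyond their spread.

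Lhx1 encodes a LIM-homeodomain transcription factor needed in the mouse embryo for head and kidney formation. It lies at chr11:84519379-84525534 on the minus strand of GRCm38, and its longest annotated coding transcript has 5 exons. Its level was 11.9 FPKM in the overexpression group and 2.79 FPKM in controls, a 4.26-fold difference (log2 2.09) and the largest of the 7 tested genes. With overexpression 51.5% of tested genes lay below it, in controls 16.3%. Among all tested genes 113 had a larger log2 fold change, 79 of them called higher. The authors' deposited table lists q = 0.000835 for Lhx1, the value shared by all 657 genes at its smallest p, so q does not rank them.

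The Lhx1 promoter is shared with a second transcript. Lhx1os, a long non-coding RNA listed in the table under its older name 1500016L03Rik (chr11:84525660-84535831, plus strand), starts 125 bases from the annotated start of Lhx1 and runs the other way, so the printed Lhx1 window covers both starts. It had 8.42 FPKM with overexpression and 4.29 FPKM in controls, a log2 change of 0.97, and passed narrowly (q = 0.0495 in the authors' deposited table). The 2 deposited spans do not overlap. On the other side, Aatf, an apoptosis-antagonising nuclear factor 5.88 kb away, had 64.3 FPKM with overexpression and 51.6 FPKM in controls and was not called.

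The 21 LIM-homeodomain relatives and LIM cofactors listed did not share 1 direction. The authors tested 10, of which 3 were lower and 1 was higher, where 7.42% of all tested genes were lower and 9.59% higher. Of the 10, 5 had a higher FPKM with overexpression, and the median log2 fold change was 0.03. Lhx6 fell to 4.94 FPKM with overexpression, against 10.4 FPKM in controls, and Lhx8, a factor of early oocytes and forebrain neurons, fell to 1.56 FPKM, against 3.43 FPKM. The LIM-only gene Lmo1 fell to 2.77 FPKM, against 11.01 FPKM in controls. Lmo1 is itself used as a marker of differentiating spermatogonia and is 1 of the 7 lower genes in that list of 10. Rlim, a ubiquitin ligase that removes the LIM cofactor LDB proteins, was the 1 higher gene (26.4 FPKM with overexpression and 17.0 FPKM in controls). Ldb1, the adaptor that bridges LIM factors, had 12.1 FPKM with overexpression and 11.5 FPKM in controls and was not called. Lhx5, the closest relative of Lhx1, was at 0.0922 FPKM with overexpression and 0.0225 FPKM in controls and was not tested. The q-values in the authors' deposited table were 0.000835 (Lhx6 and Lmo1), 0.00754 (Lhx8) and 0.00385 (Rlim).

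**Figure D2:**
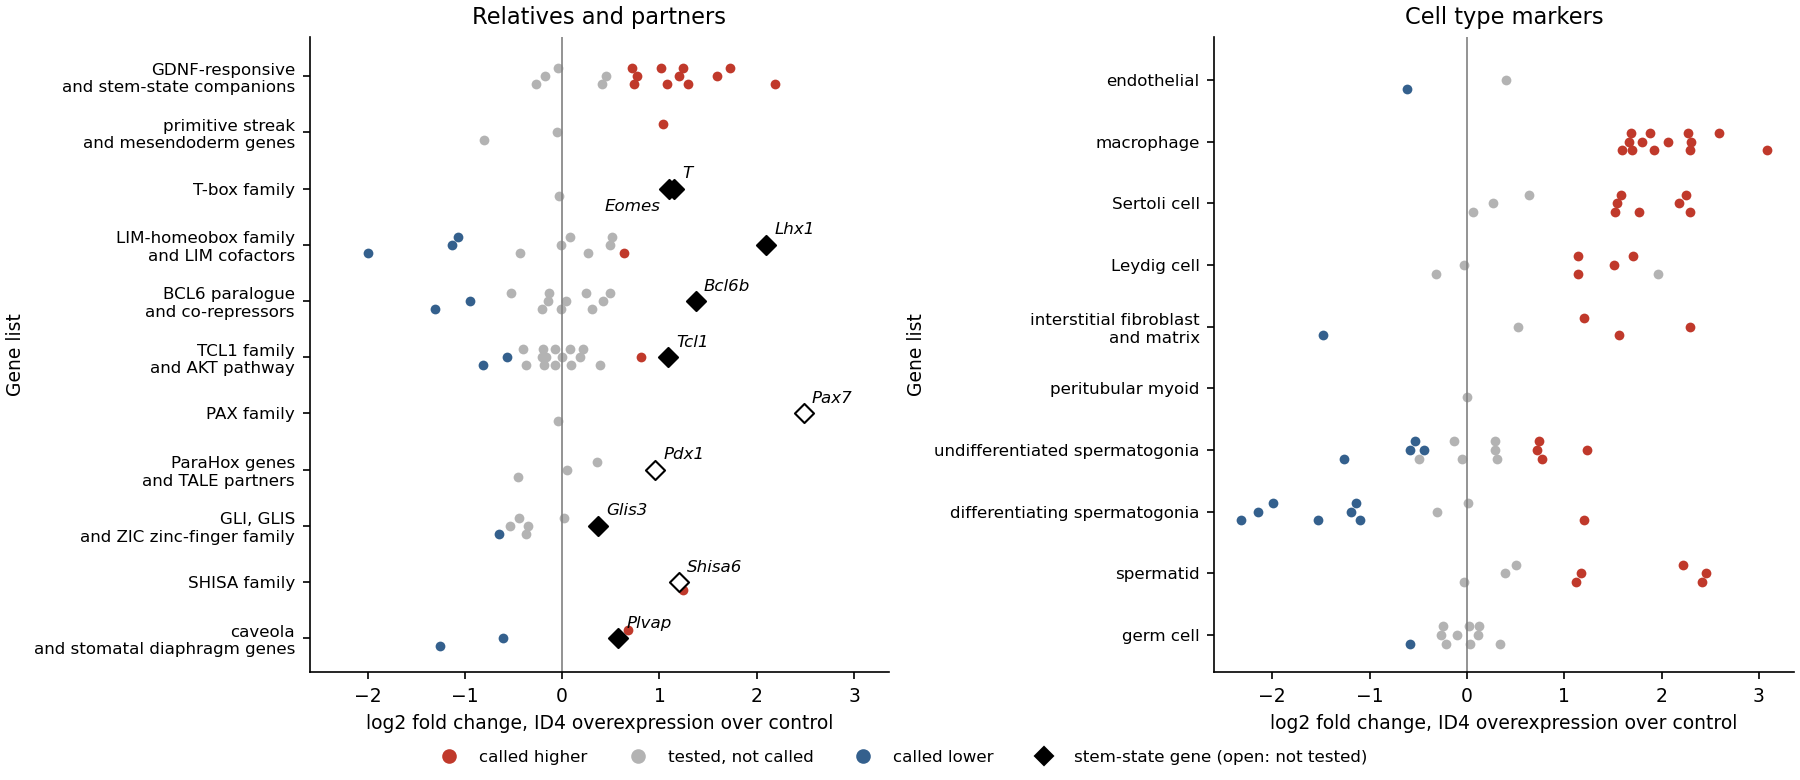
log2 fold change (ID4 overexpression over control) of tested genes in lists of relatives and partners (left) and of cell type markers (right), 1 point per gene, red for called higher, blue for called lower and grey for not called; diamonds are the stem-state genes, open where untested. Lhx1 at 2.09, Bcl6b at 1.37 and Tcl1 at 1.09 lie to the right of every tested relative in their rows, and 13 of 13 tested macrophage genes are called higher.

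Pax7 and Pdx1 are the other homeobox genes of the set. PAX7 is a paired-box factor of muscle stem cells that also marks rare spermatogonia in mouse. Its gene (chr4:139738081-139832968, minus strand) had 1.09 FPKM with overexpression and 0.196 FPKM in controls. That 5.58-fold difference (log2 2.48) is the largest of the 10 but carries no test. No tested entry in the whole table had under 1.37 FPKM in its higher group, and Pax7 lay below that. Among untested entries with at least 1 FPKM in the overexpression group, 48 had a larger log2 fold change than Pax7. Among the 8 other PAX genes, 1 was tested: Pax8, a thyroid and kidney factor, with 2.75 FPKM in the overexpression group and 2.82 FPKM in controls, was not called. The nearest tested genes on either side of Pax7 moved in opposite directions, Igsf21 higher (19.6 FPKM with overexpression and 10.3 FPKM in controls) and Aldh4a1 lower (4.06 FPKM with overexpression and 6.25 FPKM in controls), with q of 0.000835 and 0.0381 in the authors' deposited table.

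PDX1, the ParaHox factor of pancreas development, was near the floor. Pdx1 had 0.111 FPKM with overexpression and 0.0572 FPKM in controls and was not tested. The deposited span (chr5:147228598-147275149) begins 41.5 kb before the RefSeq start and covers Plut, an antisense RNA, so its low signal cannot be assigned to Pdx1 alone. Of 18 ParaHox genes and TALE-class partners, 3 were tested and 0 were called in either direction. The most abundant was Pknox1, with 8.17 FPKM with overexpression and 6.38 FPKM in controls.

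Eomes and T are the 2 T-box genes of the set. Both are known for mesoderm formation in the embryo, where T is also called Brachyury, and EOMES also for a subset of GFRA1+ spermatogonia in mouse. T (chr17:8434423-8442496, plus strand) had 3.14 FPKM with overexpression and 1.42 FPKM in controls, a log2 change of 1.15. Eomes (chr9:118478189-118486132, plus strand) had 1.68 FPKM with overexpression and 0.788 FPKM in controls, a log2 change of 1.09. Both were called, with q of 0.00792 for T and 0.0117 for Eomes in the authors' deposited table. Both kept a like distance, T standing 1.87 times above Eomes with overexpression and 1.80 times in controls. Eomes reached the test through its overexpression level, since its control level lies below that of any tested higher group. Of entries with 1.5 to 2 FPKM in the higher group 68.0% were tested, and of those tested 9.79% were called higher. An antisense RNA, Gm33460, overlaps Eomes; strand use by the counting is not given, so reads from either cannot be told apart.

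No other T-box gene was called. Of 15 others, 1 was tested, the MAX-binding factor Mga, which had 16.3 FPKM with overexpression and 16.7 FPKM in controls. Tbx3, a pluripotency-associated repressor, had 1.43 FPKM with overexpression and 0.740 FPKM in controls, and Tbx6 had 1.12 FPKM with overexpression and 0.828 FPKM in controls, both untested. Genes that accompany T and Eomes in the primitive streak, the site of mesoderm formation, were mostly at the floor: 3 of 15 were tested. Wnt3, a ligand upstream of T in the mouse embryo, was the 1 called, higher at 7.86 FPKM with overexpression and 3.82 FPKM in controls (q = 0.000835 in the authors' deposited table). Mesp2 had 5.26 FPKM with overexpression and 5.45 FPKM in controls and was not called, while Evx1 and Sox17 were listed at 0 in both groups. Next to T, 11.7 kb away, lies the abundant non-coding transcript Gm16702, which was also higher, with 376 FPKM in the overexpression group and 207 FPKM in controls (q = 0.000835 in the authors' deposited table).

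Bcl6b and Glis3 encode zinc-finger factors. BCL6B is a BTB-domain repressor whose loss impairs stem-cell maintenance in mouse testis. Bcl6b (chr11:70224127-70229798, minus strand) had 36.2 FPKM with overexpression and 13.99 FPKM in controls, a 2.59-fold difference (log2 1.37; q = 0.000835 in the authors' deposited table). Its paralogue Bcl6, the germinal-centre repressor of B cells, went the other way at a much lower level, falling to 0.845 FPKM with overexpression, against 2.09 FPKM in controls (log2 -1.30; q = 0.000835 in the authors' deposited table). Of 13 genes, Bcl6 and its co-repressors, 12 were tested, 0 were higher and 2 were lower. That is near the 17.0% of all tested genes called either way (9.59% higher and 7.42% lower). The other lower gene was the histone deacetylase Hdac7 (1.98 FPKM with overexpression and 3.82 FPKM in controls; q = 0.0310 in the authors' deposited table). The co-repressors Ncor1 and Bcor were not called, with 12.8 FPKM with overexpression and 12.9 FPKM in controls for Ncor1 and 4.03 FPKM with overexpression and 2.87 FPKM in controls for Bcor.

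The gene next to Bcl6b was also higher. Slc16a13, a monocarboxylate transporter 3.13 kb away, had 9.30 FPKM with overexpression and 4.24 FPKM in controls (log2 1.13; q = 0.000835 in the authors' deposited table). On the other side 0610010K14Rik, 5.41 kb away, had 475 FPKM with overexpression and 400.2 FPKM in controls and was not called. Within 500 kb, 38 other genes were tested, 3 of them higher and 4 lower (median 0.06), and 0 had a log2 fold change above that of Bcl6b.

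GLIS3, a zinc-finger factor of the GLI, GLIS and ZIC family needed for spermatogonial progenitors in mouse, differed least. Glis3 (chr19:28262448-28720027, minus strand) had 3.91 FPKM with overexpression and 3.02 FPKM in controls. Its log2 change of 0.37 was not called (q = 0.289 in the authors' deposited table). Glis3 is overlapped by 4933413C19Rik on the same strand, which has no entry, and by D930032P07Rik on the other strand. The latter had 0.278 FPKM with overexpression and 0 FPKM in controls and was not tested. Of 14 GLI, GLIS and ZIC genes and Hedgehog pathway partners, 6 were tested. Of these 1 was lower and 0 were higher (median -0.41), a share near the 17.0% of all tested genes called either way. The lower gene was Smo, the Hedgehog signal transducer (2.31 FPKM with overexpression and 3.64 FPKM in controls; q = 0.0408 in the authors' deposited table). Glis1 had 1.82 FPKM with overexpression and 2.31 FPKM in controls, and Glis2 had 2.96 FPKM with overexpression and 3.84 FPKM in controls; neither was called.

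Tcl1 was the most abundant of the set. TCL1 binds AKT kinases and increases their activity, and it is known from embryonic stem cells and lymphoid tumours. Tcl1 (chr12:105216755-105222737, minus strand) had 209 FPKM with overexpression and 98.0 FPKM in controls, a log2 change of 1.09 (q = 0.000835 in the authors' deposited table). It stood 15.5 times above Id4 with overexpression and 15.4 times in controls. In the same region of the chromosome its relatives Tcl1b1, Tcl1b3, Tcl1b4 and Tcl1b5 were listed at 0 in both groups. Mtcp1, the relative on the X chromosome, had 10.2 FPKM with overexpression and 8.77 FPKM in controls and was not called. The 5 tested genes within 500 kb of Tcl1 included 0 called.

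Akt1, which encodes a kinase that TCL1 binds, was lower. Of 25 genes of the TCL1 family and the AKT pathway, 17 were tested. Of these 2 were lower and 1 was higher (median -0.08), a share near the 17.0% of all tested genes called either way. Akt1 fell to 7.67 FPKM with overexpression, against 13.5 FPKM in controls, while Akt2 (30.0 FPKM with overexpression and 26.4 FPKM in controls) was not called. Rictor, a subunit of the mTOR complex that phosphorylates AKT, fell to 10.2 FPKM, against 15.0 FPKM in controls. Pik3cd, a PI3-kinase catalytic subunit abundant in leukocytes, was higher at 13.05 FPKM with overexpression and 7.43 FPKM in controls. The authors' deposited table gives q of 0.00215 (Akt1), 0.0107 (Rictor) and 0.000835 (Pik3cd). The part of macrophage RNA in the Pik3cd value was not tested.

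Shisa6 and Plvap encode membrane proteins. SHISA6 marks a fraction of GFRA1+ spermatogonia in mouse and, when overexpressed, dampens WNT signalling. Shisa6 (chr11:66211725-66526126, minus strand) had 0.344 FPKM with overexpression and 0.150 FPKM in controls and was not tested. A non-coding transcript on the opposite strand, Gm12296, overlaps Shisa6 and has no entry of its own. In its family 1 gene was tested, the p53-inducible Shisa5, which was higher at 23.1 FPKM with overexpression and 9.75 FPKM in controls (q = 0.000835 in the authors' deposited table).

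PLVAP forms the diaphragms of caveolae and fenestrae in endothelium and has been used to mark GFRA1+ spermatogonia in mouse. Plvap (chr8:71497753-71511769, minus strand) had 2.42 FPKM with overexpression and 1.62 FPKM in controls, a log2 change of 0.58 that was not called (q = 0.241 in the authors' deposited table). It overlaps Gtpbp3 on the opposite strand, which had 0.900 FPKM with overexpression and 0.862 FPKM in controls. Of 15 endothelial markers, 2 were tested, 0 were higher and 1 was lower. The summed level was 21.2 FPKM with overexpression and 25.7 FPKM in controls, most of it Egfl7, the lower gene (13.7 FPKM with overexpression and 20.98 FPKM in controls; q = 0.0345 in the authors' deposited table). Without Egfl7 the other 14 summed to 7.49 FPKM with overexpression and 4.76 FPKM in controls, and 10 of the 13 with any signal had the higher value with overexpression. Egfl7 was left out after its values were seen, and marker lists with a higher sum were not trimmed in this way. The part of endothelial RNA in the Plvap value was not tested. Among defining endothelial genes Kdr had 0.774 FPKM with overexpression and 0.364 FPKM in controls, Pecam1 had 1.37 FPKM with overexpression and 0.893 FPKM in controls, Cdh5 had 0.361 FPKM with overexpression and 0.220 FPKM in controls, and Vwf had 0.119 FPKM with overexpression and 0.121 FPKM in controls. Caveola genes split, with Ptrf higher (25.4 FPKM with overexpression and 15.9 FPKM in controls) and Ehd2 and Pacsin2 lower (1.97 FPKM with overexpression and 4.69 FPKM in controls for Ehd2, 19.0 FPKM with overexpression and 29.1 FPKM in controls for Pacsin2), at q of 0.00274, 0.000835 and 0.00628 in the authors' deposited table.

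**Figure D3:**
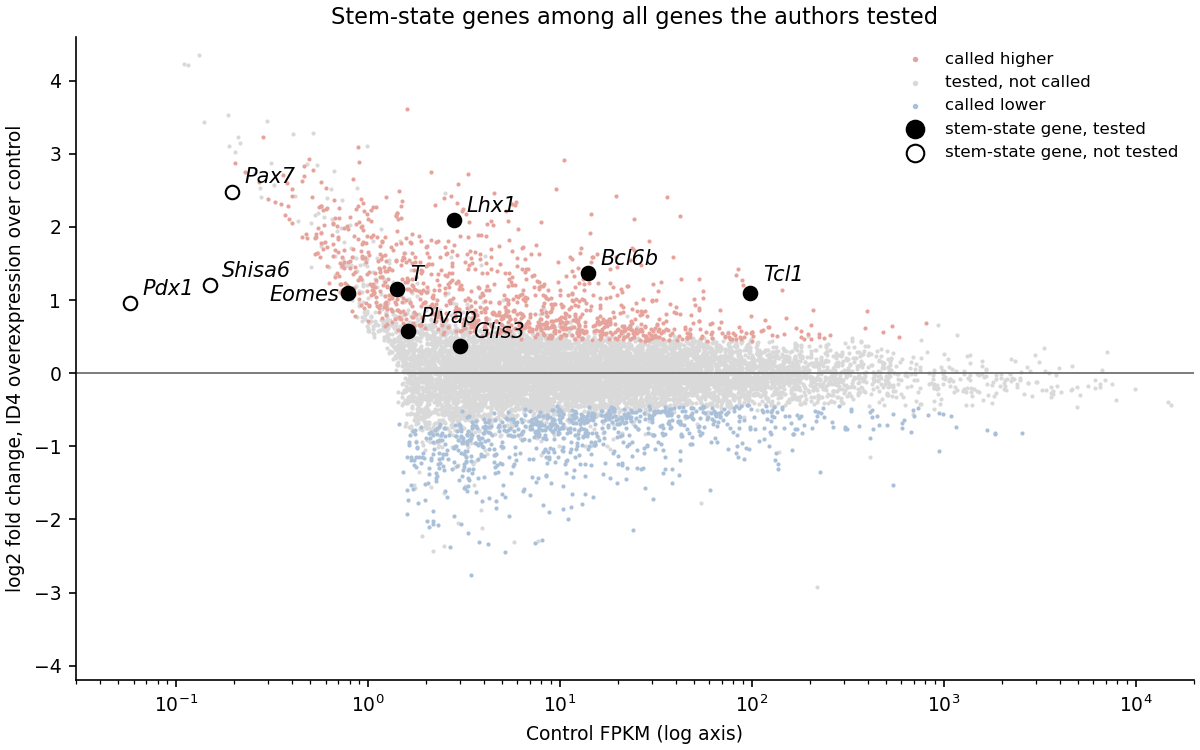
log2 fold change (ID4 overexpression over control) against control FPKM (log axis) for 10981 genes the authors tested, with the 10 stem-state genes in black and open where untested; 4 tested genes lie outside the axes and 5 listed at 0 in a group are not drawn. Lhx1, Bcl6b and Tcl1 stand above most genes of their control level, Eomes sits near the sloping lower limit of tested levels, and Pax7, Shisa6 and Pdx1 lie at control levels where few genes were tested.

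Other genes tied to GDNF and the stem state were listed beside the set. Of 17 such genes 16 were tested; 11 were higher and 0 lower (median 0.90). Id4, the gene overexpressed by design, is among the 11. Without Id4, 10 of 15 tested genes were higher (median 0.77). The other 6 of the 17 were not called. The largest differences were in Spry4, a feedback inhibitor of receptor tyrosine kinases (14.6 FPKM with overexpression and 3.23 FPKM in controls), in the ETS factor Etv4 (8.35 FPKM with overexpression and 2.52 FPKM in controls) and in the chemokine receptor Cxcr4 (5.26 FPKM with overexpression and 1.75 FPKM in controls), each at q = 0.000835 in the authors' deposited table. The forkhead factor Foxo1 (24.8 FPKM with overexpression and 25.5 FPKM in controls) and Taf4b, a germ-cell TFIID subunit (6.59 FPKM with overexpression and 7.95 FPKM in controls), were not called. General markers of undifferentiated spermatogonia split, with 4 of 14 higher and 4 lower. The 4 higher ones, Gfra1, Ret, Etv5 and Nanos2, are also in the GDNF list. Of the lower ones, Uchl1, Lin28a, Utf1 and Sohlh1, only Uchl1 passed at a q of 0.01. At a q of 0.1, 4 of the 14 were higher and 5 were lower. The markers summed to 958 FPKM with overexpression and 1179 FPKM in controls. The ubiquitin hydrolase gene Uchl1 made up much of this (464 FPKM with overexpression and 696 FPKM in controls). Without it the sums were 493 FPKM with overexpression and 483 FPKM in controls. Uchl1 was left out after its values were seen, and marker lists with a higher sum, such as the spermatid list, were not trimmed in this way. Beside these counts 13 of 14 macrophage, 7 of 15 Sertoli cell and 5 of 10 spermatid genes were higher, and their part in the result was not tested.

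The genes most like each called gene were found by distance in the plane of the 2 group levels (log2 FPKM with overexpression and in controls). Closest to Bcl6b were Pcp4l1 (33.0 FPKM with overexpression and 14.1 FPKM in controls) and Gfra1, the GDNF co-receptor (37.3 FPKM with overexpression and 15.8 FPKM in controls). Closest to Tcl1 were the cyclin Ccnd2 (206.4 FPKM with overexpression and 89.5 FPKM in controls) and the glutathione transferase Gsta4 (214 FPKM with overexpression and 88.7 FPKM in controls). Closest to Lhx1 were Mrc1, the macrophage mannose receptor (11.1 FPKM with overexpression and 3.02 FPKM in controls), and Cypt12 (13.1 FPKM with overexpression and 2.49 FPKM in controls). Near T lay Ube2l6 (3.19 FPKM with overexpression and 1.41 FPKM in controls) and the protease St14 (3.21 FPKM with overexpression and 1.40 FPKM in controls), and near Eomes lay the cytokine receptor subunit Il2rg (1.72 FPKM with overexpression and 0.815 FPKM in controls) and Dnase1l1 (1.64 FPKM with overexpression and 0.820 FPKM in controls). The last pair was not called, at q of 0.0713 and 0.101 in the authors' deposited table, although their levels were close to those of Eomes. With 2 values per gene, this likeness is a description of level only.

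Within 500 kb of any of them, measured between lower-coordinate ends, 100 other genes were tested, 9 of them higher (9.0%, against 9.59% of all tested genes) and 11 lower (11%, against 7.42%); the median log2 fold change was 0.01. Within 100 kb there were 17, of which 17.6% were higher and 11.8% were lower. The 3 higher genes were Lhx1os, Slc16a13 and Gm16702. The 2 lower ones, Pgls (log2 -1.72) and Fam129c (log2 -1.09), both lie near Plvap.

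**Figure D4:**
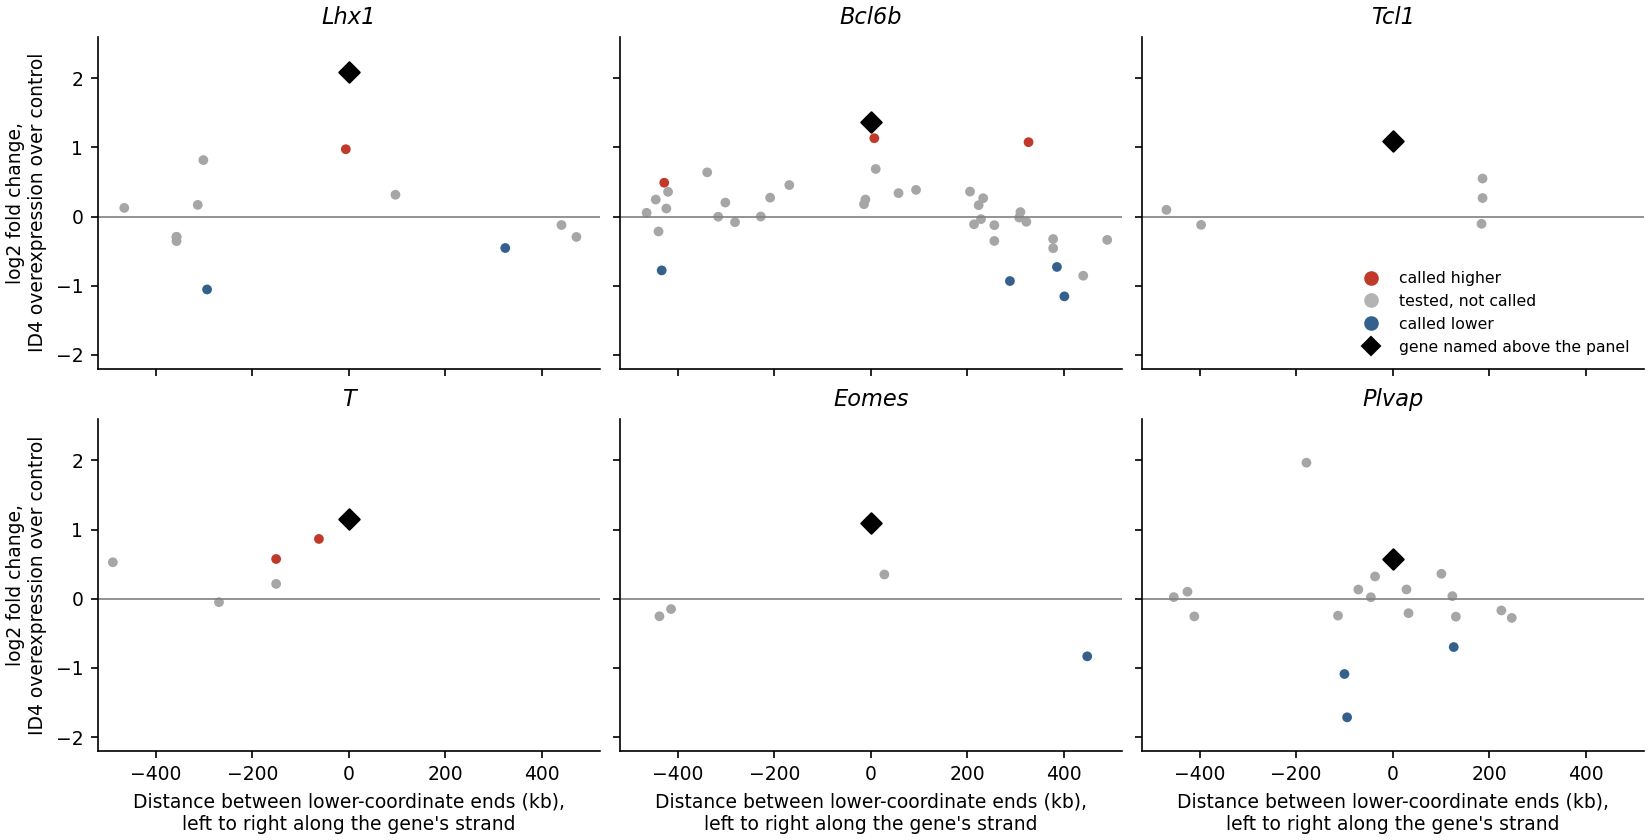
log2 fold change (ID4 overexpression over control) of tested genes within 500 kb of 6 stem-state genes, by distance between lower-coordinate ends along the strand of the gene named above each panel, red for called higher, blue for called lower and grey for not called. The diamonds of Lhx1, Bcl6b, Tcl1, T and Eomes lie above all other points in their panels, while 1 uncalled gene near Plvap lies above it.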

How the data were processed

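RNA was measured in 3 ID4 overexpression and 3 control samples. Total RNA came from a Trizol extraction and oligo d(T) priming made the cDNA, per the labels' protocols. The submitters' processing notes name TopHat, Cufflinks and mm9, without versions. The authors deposited 1 FPKM value per gene and group, already combined over samples, and a p-value and q-value for each, in the layout of Cuffdiff per the file headers. Library scaling and strand use are not given in the sources used here. Positions match GRCm38: GENCODE M21 holds 21624 of the symbols, and 99.1% of these entries overlapped the gene of that name, so coordinates are given in that build, 1-based.

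Fold changes were recomputed from the deposited FPKM without a pseudocount (Python 3.11.15, pandas 2.3.3). The authors' q-values differed from a Benjamini-Hochberg adjustment over the 10990 tested genes by at most 4.77e-05. Nothing was refitted; calls use the authors' q at 0.05. Scripts were tested on simulated data. The named genes are all 10 members; per list up to 3 called genes with the largest change, or the most abundant tested gene; the 2 nearest patterns; and adjacent genes. Other genes were named after their values were seen. The members and lists were chosen with earlier results of these data known. Alternatives covered q thresholds, minimum levels and folds, pseudocounts, centring and window size. Protein comparisons were not analysed here. One gene of a list is not reported here by name.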

Additional observations from a re-analysis of the deposited data

How the results depend on the processing

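Of the 5 genes called higher, 4 stayed so at an authors' q of 0.01, where Eomes (q = 0.0117) did not pass. All 5 stayed so with an absolute log2 fold change of at least 1. They also stayed at a q of 0.1 and under a minimum of 1 FPKM in the group with more. Neither of the latter settings could remove a call: a q of 0.1 is looser, and no tested entry had under 1.37 FPKM in its higher group. None of the 10 was lower in any of the settings named here. Over all tested genes 1869 were called, 1114 at a q of 0.01 and 726 with an absolute log2 fold change of at least 1. A pseudocount of 1 FPKM gave log2 changes of 0.81 for Pax7, 0.23 for Shisa6 and 0.07 for Pdx1, and of 0.59 for Eomes and 0.78 for T; 0.1 FPKM gave 0.42 for Pdx1. Centring on the tested genes' median of 0.01 reversed none. The calls of Smo, Egfl7, Hdac7, Rictor, Aldh4a1, Lin28a, Utf1, Sohlh1 and Lhx1os, among others, did not pass at a q of 0.01. That left 1 lower undifferentiated marker of 4 and 1 lower gene of 2 in the AKT list. At a q of 0.1 the undifferentiated list had 5 lower and 4 higher genes, and the AKT list had 3 lower and 1 higher. The share of neighbours called higher, 9.0% within 500 kb, was 17.6% within 100 kb, where few genes were tested. No paired analysis was possible because the files give 1 combined value per group, and leaving out replicates was not run for the same reason. Levels below about 1.37 FPKM in the higher group carry no test.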

Other observations

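Several relatives of the stem-state genes lay below the level at which the authors tested, and their values are given without a call. They are examples named after their values were seen, and untested relatives went both ways. Cav1, the caveola scaffold gene, had 0.447 FPKM with overexpression and 0.0801 FPKM in controls, and Cav2 had 0.799 FPKM with overexpression and 0.199 FPKM in controls. Egr3, an early growth response factor induced by GDNF, had 0.342 FPKM with overexpression and 0.145 FPKM in controls. Ldb2, the second LIM adaptor gene, had 1.02 FPKM with overexpression and 0.421 FPKM in controls. Zic1 and Zic4, which lie side by side in the mouse genome, had 0.550 and 0.673 FPKM with overexpression and 0.179 and 0.291 FPKM in controls. Others were lower with overexpression. Lhx4 had 0.0638 FPKM with overexpression and 0.324 FPKM in controls, and Gli2 had 0.234 FPKM with overexpression and 0.522 FPKM in controls. The caveola genes Prkcdbp and Cav3 had 0.560 and 0.0559 FPKM with overexpression and 1.14 and 0.103 FPKM in controls.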
